A study of Homo sapiens with 24 samples.

Results

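The wild-type tRNA pool of HEK293T cells, a human embryonic kidney line, was described here in both of the library sets in which it had been sequenced. These were 6 of the 24 libraries of the series, 3 in each set, and the rule took every nuclear and mitochondrial tRNA measured in them, 71 human rows at the level of the anticodon and 283 at the level of the isodecoder. The series compared wild-type HEK293T cells with cells in which DUS1L, DUS2L or DUS3L, genes of dihydrouridine synthases, had been knocked out. Per the labels no drug was given, and the groups differ in genotype, clone and, for wild type, set. They were wild type in a set labelled WT and a set labelled WT 2, and a pair of knockout clones for each gene (DUS1L KO 1-9 and 2-4, DUS2L KO 1-8 and 2-1, DUS3L KO 1-5 and 2-8), with 3 libraries in each of the 8 groups. Transfer RNA had been cut from a gel, and tRNAs of E. coli (Lys-TTT, Phe-GAA and Tyr-GTA) had been added as spike-ins. Nothing in the labels ties the 3 libraries of a set to separate cultures, so the spread between libraries, on which the errors below rest, may be technical.

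A tRNA carries 1 amino acid to the ribosome and reads codons through its anticodon, and tRNAs with the same anticodon form a family. Isodecoders are members of a family that differ in sequence outside the anticodon. Nuclear tRNA genes are transcribed by RNA polymerase III from many loci, whereas the mitochondrial genome encodes its own small set, cut out of long transcripts of both DNA strands. Methyl groups and other base modifications of tRNA can stop reverse transcriptase, so that the share of reads of a tRNA depends on the library preparation as well as on its abundance.

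The authors' deposited tables hold no values per library. They give the mean of normalised counts over a table's 3 groups and the fold changes of both clones against wild type, from which the wild-type mean of each row was solved. The wild-type shares recovered from the DUS1L and the DUS2L tables differed by a median of 0.01 on the log2 scale over 70 anticodon rows, all but Tyr-ATA, and by 0.07 at most, so these tables were taken to rest on 1 wild-type set. Isodecoder levels summed to their anticodon row within 0.01. The DUS3L tables gave the other set. The headers do not say which of them is the set labelled WT 2, so they are called the DUS1L-table set and the DUS3L-table set. Each level is given as percent of the summed level of the human rows, with its standard error (SE, n = 3 libraries) from the dispersion that the authors' fold changes and p-values imply. Both clones of a table implied nearly the same dispersion of an anticodon row (median log2 difference 0.0005 in the DUS1L and 0.0025 in the DUS3L tables). It is thus a value for wild type and clones together, not the spread of the 3 wild-type libraries alone. Differences are log2 of the share in the DUS3L-table set over that in the DUS1L-table set, and a row was called higher or lower in the DUS3L-table set where its difference was over 3 times its SE. No p-value was computed, since the tables had been normalised separately. Library set and everything that differed between the sets, such as culture, preparation and sequencing run, cannot be told apart.

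The tRNA genes whose names the rows bear are shown first. Of 261 nuclear isodecoder rows, 248 matched a tRNA gene of RefSeq by name. A row can stand for more than 1 gene, as Gly-GCC has 5 isodecoder rows and 13 genes in RefSeq. Positions here and below are those of the gene of the same name, and do not show which gene the reads came from. The gene named like the most abundant isodecoder of the DUS3L-table set, tRNA-Gly-GCC-1-2, lies at chr1:161450677-161450747 in an intron of AL592295.3. The following nuclear genes were those of the discussed rows whose sequence could be read from the GENCODE transcripts or the RefSeq promoter windows (GRCh38). They are printed 5′ to 3′ on the strand of the tRNA with the anticodon in capitals, and introns are included. Gly-GCC-2-1 (chr1:161523847-161523917, minus strand) is a minor member of the family that dominated the DUS3L-table set. Arg-ACG-2-1 (chr3:45688999-45689071, minus strand, in an exon of LIMD1-AS1 and SACM1L) had nearly the same percent of human rows in both sets. Arg-TCT-1-1 (chr1:93847573-93847657, plus strand, in an exon of AL049796.1) was lower in the DUS3L-table set. The glutamate genes Glu-TTC-3-1 (chr1:16872583-16872654, plus strand) and Glu-TTC-4-1 (chr1:16535279-16535350, minus strand, in an exon of LINC01783) and the asparagine genes Asn-GTT-4-1 (chr1:16889677-16889750, plus strand) and Asn-GTT-6-1 (chr1:143735920-143735993, minus strand) show how little isodecoders of 1 family can differ.
tRNA-Gly-GCC-2-1: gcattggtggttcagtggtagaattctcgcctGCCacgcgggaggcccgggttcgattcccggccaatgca
tRNA-Arg-ACG-2-1: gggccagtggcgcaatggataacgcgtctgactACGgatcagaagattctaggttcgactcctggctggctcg
tRNA-Arg-TCT-1-1: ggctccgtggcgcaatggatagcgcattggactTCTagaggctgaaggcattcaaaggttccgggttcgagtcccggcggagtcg
tRNA-Glu-TTC-3-1: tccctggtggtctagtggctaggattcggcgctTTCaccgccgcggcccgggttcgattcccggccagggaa
tRNA-Glu-TTC-4-1: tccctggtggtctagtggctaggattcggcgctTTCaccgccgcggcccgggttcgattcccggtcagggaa
tRNA-Asn-GTT-4-1: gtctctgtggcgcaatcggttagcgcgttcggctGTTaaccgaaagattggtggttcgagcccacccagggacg
tRNA-Asn-GTT-6-1: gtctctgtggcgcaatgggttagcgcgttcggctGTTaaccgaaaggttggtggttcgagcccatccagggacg

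Counted from 1 at the 5′ end, Glu-TTC-3-1 and Glu-TTC-4-1 differed by the single substitution C65T over 72 bases. Asn-GTT-4-1 and Asn-GTT-6-1 differed by C17G, A47G and C65T over 74 bases. Reads that do not span such a base can come from either gene. How the authors assigned them is not given in the sources used here, and isodecoder values below carry that uncertainty.

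Mitochondrial tRNAs were read from the GENCODE transcripts, again with the anticodon in capitals. Shown are the 3 that were higher, the most abundant pair and both leucine tRNAs. MT-TS1 (chrM:7446-7514, minus strand), MT-TP (chrM:15956-16023, minus strand) and MT-TT (chrM:15888-15953, plus strand) were higher in the DUS3L-table set. MT-TE (chrM:14674-14742, minus strand), MT-TV (chrM:1602-1670, plus strand), MT-TL1 (chrM:3230-3304, plus strand) and MT-TL2 (chrM:12266-12336, plus strand) were lower.
MT-TS1: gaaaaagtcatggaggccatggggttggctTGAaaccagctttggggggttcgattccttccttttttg
MT-TP: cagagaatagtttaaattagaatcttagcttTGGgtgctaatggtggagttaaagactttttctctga
MT-TT: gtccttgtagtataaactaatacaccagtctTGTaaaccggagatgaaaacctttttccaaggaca
MT-TE: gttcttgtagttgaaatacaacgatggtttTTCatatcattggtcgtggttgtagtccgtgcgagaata
MT-TV: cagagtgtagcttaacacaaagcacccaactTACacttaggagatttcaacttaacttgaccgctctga
MT-TL1: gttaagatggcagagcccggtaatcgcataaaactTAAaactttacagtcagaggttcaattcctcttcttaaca
MT-TL2: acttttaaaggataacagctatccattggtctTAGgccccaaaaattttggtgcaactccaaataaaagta

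The glycine family Gly-GCC made up 7.65% ± 2.26 of the human rows in the DUS1L-table set and 52.0% ± 8.43 in the DUS3L-table set. It was thus 6.80-fold higher in the latter, a log2 difference of 2.77 ± 0.49. In the DUS1L-table set it ranked behind Glu-TTC (10.2% ± 2.53) and Arg-CCT (7.75% ± 2.28), and their intervals overlapped. In the DUS3L-table set the next family, Arg-ACG, held 6.69% ± 1.24. Glycine tRNAs of all anticodons together held 9.67% and 53.8%. The largest 8 rows were needed to make up 50% of the DUS1L-table pool and 1 row sufficed in the DUS3L-table pool. The effective number of anticodons, the inverse of the summed squared shares, was 20.6 in the former and 3.53 in the latter. With Gly-GCC left out of both pools it was 20.02 and 18.4.

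**Figure D1:**
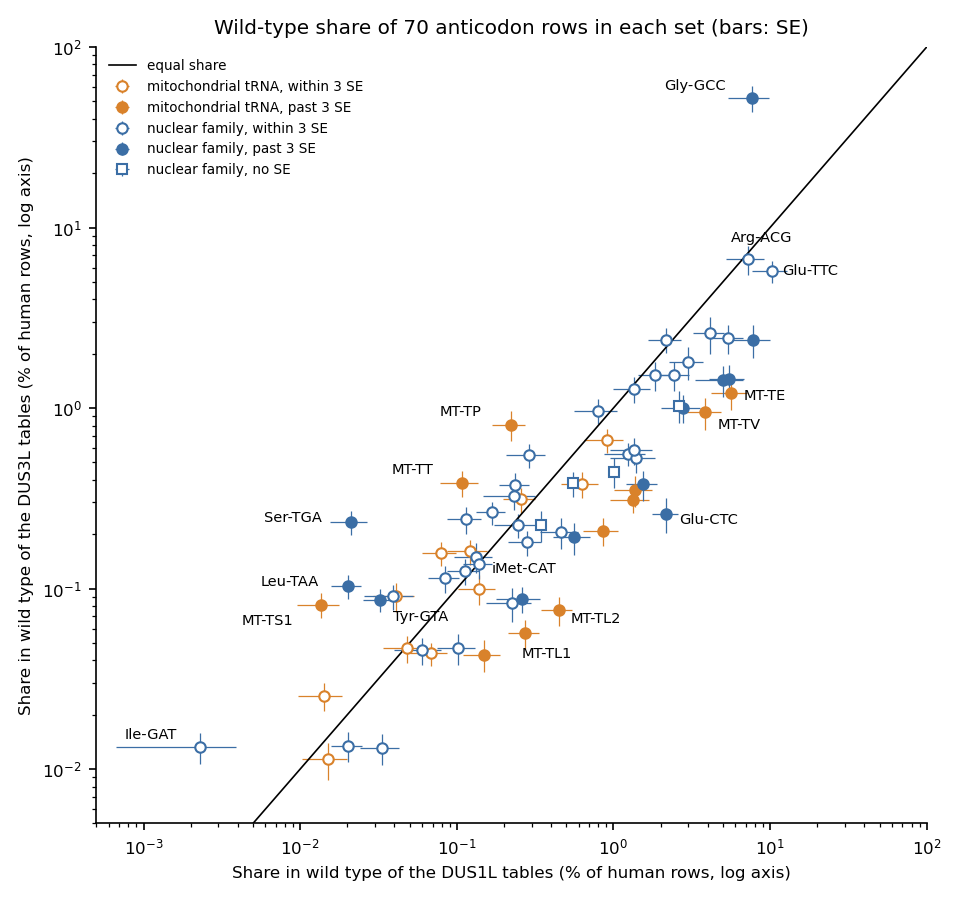
Share of 70 anticodon rows in the wild type of the DUS1L tables (x axis) and of the DUS3L tables (y axis), in percent of human rows on log axes. SE bars are for 3 libraries a set, with a dispersion shared with the clones. Gly-GCC stands far above the line of equal shares at 52.0% against 7.65%, and more filled points (past 3 SE) lie below the line than above it; Tyr-ATA, under 1 normalised count in the DUS1L-table set, is not drawn.

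Of the 71 anticodon rows 67 could be compared, since the authors' tables gave no usable p-value for Trp-CCA, Leu-AAG, Thr-TGT and Leu-TAG in the DUS1L-table set. By this measure 8 rows (11.9%) were higher and 16 (23.9%) lower in the DUS3L-table set, and 43 lay within 3 SE. At least 2-fold differences were seen in 12 rows (17.9%) that were higher and 24 (35.8%) that were lower. The median difference of all 67 was -0.45 and the median size of a difference was 1.14, at a median SE of 0.463. A share must fall where 1 family takes most of the pool. With Gly-GCC left out of the total, a scale added once the values had been seen, 19 rows were higher and 3 lower, and all rows stood 0.94 higher. The 8 rows that were higher, Gly-GCC, Ser-TGA, Leu-TAA, Tyr-GTA, Tyr-ATA, MT-TS1, MT-TP and MT-TT, were higher on each of 5 scales. For Tyr-ATA this adds no support. It was under 1 normalised count in the DUS1L-table set, and its difference of 12.4 ± 3.45 was too large for a scale to turn. Of the 16 lower rows, Glu-CTC, MT-TL1 and MT-TL2 were lower on all 5. The order of the shares was largely kept, with a Spearman correlation of 0.87 over the 71 rows, which share their library.

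Nuclear families higher in the DUS3L-table set read serine, leucine and tyrosine codons besides glycine. Ser-TGA held 0.0212% ± 0.0056 of the DUS1L-table pool and 0.233% ± 0.035 of the DUS3L-table pool, 11.0-fold more. Leu-TAA held 0.0201% ± 0.0045 and 0.104% ± 0.016, a difference of 2.36 ± 0.39. Both are class II tRNAs, which have a long variable arm. Of the 8 class II families compared (those of leucine, serine and selenocysteine), 2 were higher and none lower, and their median difference was 0.88 against -0.45 over all rows. The background is 11.9% higher and 23.9% lower over all rows. Centred on the median nuclear row, 5 of the 8 were higher, beside 15 of all 67 rows. Without Gly-GCC it was also 5, beside 19 of all 67. The summed share of these 8 was 0.794% and 1.51%, whereas all 10 class II families held 2.15% and 2.18%. The other class II families had no SE in the DUS1L-table set. Of these, Leu-AAG held 1.01% and 0.445% and Leu-TAG 0.346% and 0.225%. Tyr-GTA, the tyrosine tRNA of both tyrosine codons, held 0.0324% ± 0.0072 and 0.0866% ± 0.0124, a difference of 1.42 ± 0.38.

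Families lower in the DUS3L-table set carried glutamate, asparagine, arginine, methionine, proline, alanine and lysine. Glu-CTC went from 2.18% ± 0.42 to 0.259% ± 0.057, which is 8.40-fold less. Its partner Glu-TTC held 10.2% ± 2.53 and 5.74% ± 0.83 and lay within 3 SE, so that the ratio of Glu-TTC to Glu-CTC was 4.69 in the DUS1L-table set and 22.1 in the DUS3L-table set. Such ratios within a set do not depend on the common scale. Asn-GTT, the only asparagine family, went from 1.55% ± 0.34 to 0.378% ± 0.072. The elongator methionine tRNA Met-CAT went from 5.03% ± 1.73 to 1.43% ± 0.29, a difference of -1.81 ± 0.57, whereas the initiator iMet-CAT, which starts translation, held 0.139% ± 0.029 and 0.136% ± 0.023. Elongator exceeded initiator 36.2-fold in the DUS1L-table set and 10.5-fold in the DUS3L-table set. On the scale without Gly-GCC, Asn-GTT stood at -1.09 ± 0.42 and Met-CAT at -0.87 ± 0.57, both within 3 SE. With the spike-ins as reference, Met-CAT also lay within 3 SE (-1.72 ± 0.57).

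Arginine tRNAs were the largest isotype of the DUS1L-table pool, with 25.8% of the human rows against 13.9% in the DUS3L-table pool, and their 5 families did not move alike. Arg-ACG held 7.19% ± 1.96 and 6.69% ± 1.24, a difference of -0.10 ± 0.48. Arg-TCT went from 5.48% ± 1.37 to 1.45% ± 0.27 and Arg-CCT from 7.75% ± 2.28 to 2.40% ± 0.49, differences of -1.91 ± 0.45 and -1.69 ± 0.52. Arg-CCG and Arg-TCG stood at -0.72 ± 0.46 and -0.68 ± 0.44, within 3 SE, and at 0.22 and 0.27 without Gly-GCC. Arg-ACG thus made up 27.8% of arginine tRNA in the DUS1L-table set and 48.2% in the DUS3L-table set, and its ratio to Arg-TCT was 1.31 and 4.60. Centred on the median nuclear row, Arg-TCT (-1.33 ± 0.45) and Arg-CCT (-1.11 ± 0.52) lay within 3 SE. Of the lysine families, Lys-CTT stood at -1.16 ± 0.43 and Lys-TTT at -1.48 ± 0.47, which was past 3 SE, and their ratio was 1.94 and 2.43. Pro-TGG and Ala-TGC stood at -1.57 ± 0.51 and -1.54 ± 0.48. With the spike-ins as reference, Lys-TTT, Pro-TGG and Ala-TGC lay within 3 SE, at -1.38, -1.47 and -1.44.

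The make-up of an amino acid by anticodon does not depend on the common scale either. Serine tRNA was led by Ser-GCT in both sets, with 74.1% of the serine rows in the DUS1L-table set and 49.1% in the DUS3L-table set, and Ser-TGA held 6.82% and 35.2%. Leucine tRNA was led by Leu-AAG, with 58.5% and 32.0%, and Leu-TAA, Leu-CAG and Leu-CAA held 1.16%, 6.59% and 13.7% in the DUS1L-table set and 7.45%, 17.5% and 26.9% in the DUS3L-table set. In valine, Val-TAC held 30.8% and 14.8% and Val-CAC 53.1% and 69.2%, while Val-AAC held 16.2% and 16.0%. Proline changed little in make-up, Pro-TGG holding 50.005% and 47.6%, Pro-CGG 43.6% and 45.3% and Pro-AGG 6.42% and 7.08%. Alanine and lysine were also alike, with Ala-AGC at 65.1% and 69.97% and Lys-CTT at 66.02% and 70.8%. Isoleucine was mostly Ile-AAT, with 68.1% and 77.1%. Grouped by the first base of the anticodon, families with A had a median difference of -0.26 (8 compared, 1 higher), with C of -0.72 (15 compared, 3 lower), with G of 0.13 (9 compared, 2 higher, 1 lower) and with T of -0.68 (13 compared, 2 higher, 4 lower), beside 11.9% higher and 23.9% lower over all rows. With Gly-GCC left out of the total, these medians were 0.68, 0.22, 1.08 and 0.27, and of the families with C 3 were higher and 1 lower.

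Some abundant families had almost the same percent of human rows in both sets. His-GTG held 1.35% ± 0.35 and 1.28% ± 0.21, Asp-GTC 2.18% ± 0.53 and 2.39% ± 0.38, and Gly-CCC 1.85% ± 0.43 and 1.52% ± 0.28. With Arg-ACG these were the 4 families of the smallest difference among those of at least 1% in both sets, by sizes of 0.08 to 0.28. The selenocysteine tRNA SeC-TCA differed by 0.16 ± 0.41. This nearness belongs to the scale: without Gly-GCC in the total, His-GTG stood at 0.86, Asp-GTC at 1.08, Gly-CCC at 0.66, Arg-ACG at 0.84 and SeC-TCA at 1.10, all within 3 SE, and Glu-TTC at 0.11. At these errors a difference under about 3 times the median SE of 0.463 was not detectable. His-GTG, Asp-GTC, Asn-GTT and Tyr-GTA are the tRNAs that carry queuosine at the anticodon's first base in human cells. Of these 4, Tyr-GTA was higher and Asn-GTT lower, beside 11.9% higher and 23.9% lower over all rows. Without Gly-GCC only Tyr-GTA was past 3 SE. The number of genes a family has in RefSeq, 423 in all, was weakly and positively related to the shares. Its Spearman correlation over 49 families was 0.30 in the DUS1L-table set and 0.31 in the DUS3L-table set. With the difference it was -0.10 over 48.

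**Figure D2:**
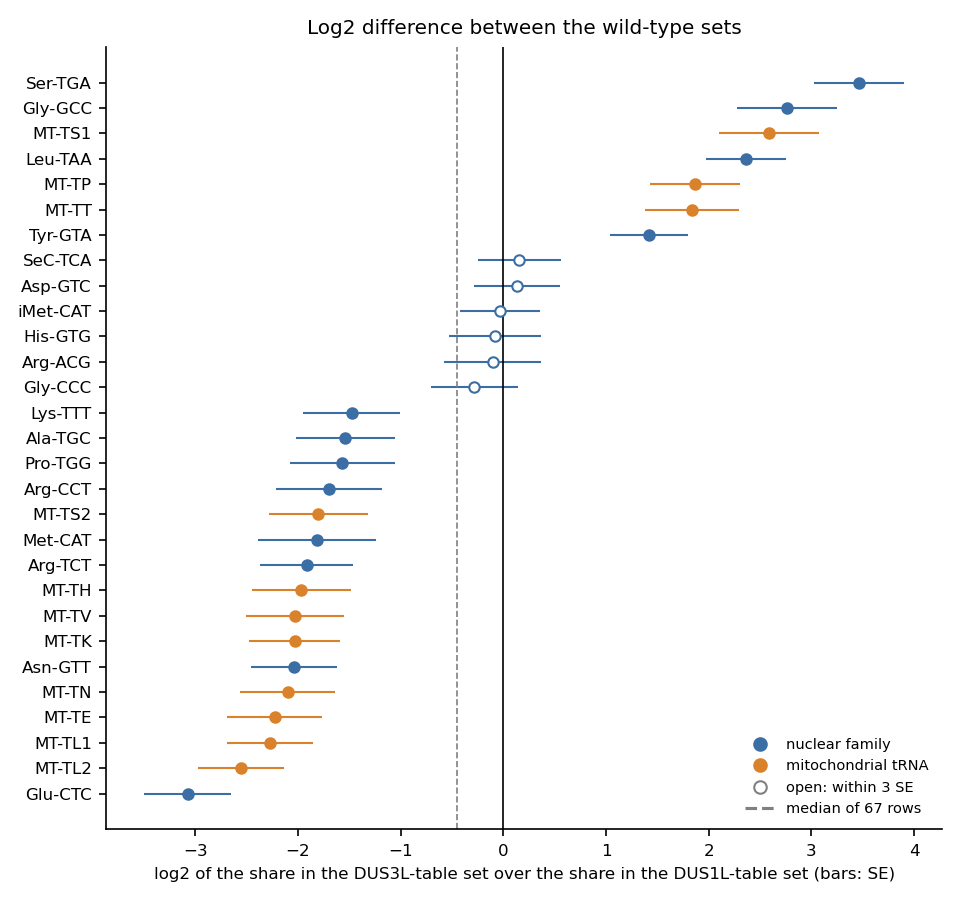
Log2 of the share in the DUS3L-table set over that in the DUS1L-table set for the rows past 3 SE other than Tyr-ATA (filled) and 6 named rows within 3 SE (open), with SE bars and a dashed line at the median of the 67 rows, -0.45. Ser-TGA stands highest at 3.46 and Glu-CTC lowest at -3.07.

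Mitochondrial tRNAs made up 16.6% of the human rows in the DUS1L-table set and 6.46% in the DUS3L-table set, 18.0% and 13.5% with Gly-GCC left out of the total. All 22 were compared; 3 were higher and 8 lower, against 11.9% and 23.9% of all rows, and their median difference was -0.46, a sign that turned with Gly-GCC left out of the total (0.49, with 7 higher and 2 lower) or centred on the median nuclear row (0.12). The glutamate tRNA MT-TE was the largest in both sets, with 5.64% ± 1.45 and 1.20% ± 0.23, a difference of -2.23 ± 0.46. The valine tRNA MT-TV followed with 3.86% ± 1.01 and 0.947% ± 0.189. The histidine, asparagine and lysine tRNAs MT-TH, MT-TN and MT-TK were lower by similar amounts, at -1.97 ± 0.48, -2.10 ± 0.47 and -2.03 ± 0.45. Without Gly-GCC in the total, MT-TE (-1.28 ± 0.46), MT-TV (-1.08 ± 0.48), MT-TH (-1.02 ± 0.48) and MT-TN (-1.16 ± 0.47) lay within 3 SE. The 2 still lower on that scale were MT-TL1 and MT-TL2. MT-TM, which carries methionine, held 0.905% ± 0.253 and 0.663% ± 0.100, within 3 SE. Both leucine tRNAs were lower, MT-TL2 from 0.446% ± 0.101 to 0.0758% ± 0.0136 and MT-TL1 from 0.274% ± 0.063 to 0.0568% ± 0.0104.

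The serine tRNAs of mitochondria moved apart. MT-TS1 went from 0.0136% ± 0.0040 to 0.0815% ± 0.0130, a difference of 2.59 ± 0.49, and MT-TS2, which lacks the D arm, from 0.150% ± 0.040 to 0.0430% ± 0.0086, a difference of -1.80 ± 0.48. MT-TP held 0.221% ± 0.053 and 0.808% ± 0.154 and its neighbour MT-TT 0.108% ± 0.030 and 0.385% ± 0.063. The genes of the threonine tRNA MT-TT and the proline tRNA MT-TP lie side by side on opposite strands, and both were higher by nearly the same amount, 1.84 ± 0.46 and 1.87 ± 0.44. The 8 light-strand tRNAs had a median difference of 0.12 (2 higher, 2 lower) and the 14 heavy-strand tRNAs of -0.60 (1 higher, 6 lower). Over all rows 11.9% were higher and 23.9% lower. As percent of nuclear rows these medians were -0.05 and -0.77. Without Gly-GCC they were 1.06 (3 higher, 0 lower) and 0.34 (4 higher, 2 lower), beside 19 higher and 3 lower of all 67 rows. The effective number of mitochondrial tRNAs was 5.21 in the DUS1L-table set and 9.98 in the DUS3L-table set, since the abundant ones were lower. Across the 22, the difference had a Spearman correlation of -0.51 with tRNA length (59 to 75 bases) and of 0.01 with GC content (23.1% to 49.3%), as a description of tRNAs that share their libraries.

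**Figure D3:**
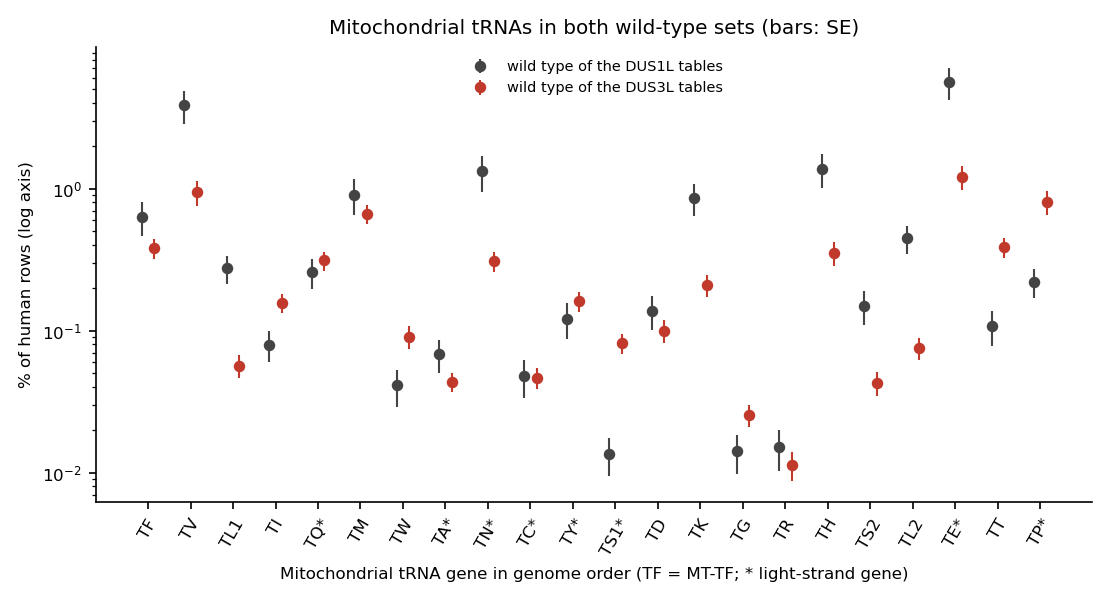
Share of the 22 mitochondrial tRNAs in percent of human rows (log axis) in both wild-type sets, in genome order, with an asterisk for light-strand genes. SE bars are for 3 libraries a set, with a dispersion shared with the clones. MT-TE and MT-TV are lower in the DUS3L-table set, and MT-TS1, MT-TT and MT-TP higher.

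At the level of isodecoders, 238 of 283 rows could be compared, 15 having no SE and 30 a mean level under 10 normalised counts. Of these, 48 (20.2%) were higher and 47 (19.7%) lower in the DUS3L-table set, 39.9% in all, and 65 (27.3%) were at least 2-fold higher and 89 (37.4%) at least 2-fold lower. The median size of a difference was 1.42 at a median SE of 0.544. With Gly-GCC left out of the total 81 were higher and 19 lower. On all 5 scales, 44 were higher and 19 lower. The 44 include Tyr-GTA-9-1, Cys-GCA-19-1, Tyr-ATA-1-1, Cys-GCA-11-1 and Gln-CTG-7-1, which were near 0 in the DUS1L-table set, so that this adds no support for them. Nor does it for others that reach the minimum of 10 through the DUS3L-table set alone, such as Lys-CTT-10-1 and Asn-GTT-11-2 (1.94 and 1.88 in the DUS1L-table set). The same holds for lower rows with few counts in the DUS3L-table set, such as Lys-TTT-2-1 (1.80). The rise of Gly-GCC lay in tRNA-Gly-GCC-1-2, which held 7.01% ± 2.20 of the DUS1L-table pool and 51.3% ± 8.99 of the DUS3L-table pool. It made up 91.7% and 98.6% of its family. The other Gly-GCC isodecoders went different ways. Gly-GCC-4-1 (chr1:161480566-161480636) went from 49.5 to 2914 normalised counts, or from 0.0037% ± 0.0013 to 0.577% ± 0.108, which is 157-fold. Gly-GCC-2-1, printed above, went from 0.592% ± 0.146 to 0.154% ± 0.034 and was lower.

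The steepest rises were taken among isodecoders with a mean of at least 100 normalised counts over both sets, a level that such rows reach through the DUS3L-table set alone, so their low DUS1L-table levels come with the choice. Gly-CCC-3-1 (chr17:19860862-19860932, in an intron of ULK2) went from 46.4 to 2907 normalised counts, a 168-fold higher share. Thr-CGT-3-1 (chr6:28648207-28648280) and Thr-CGT-5-1 (chr6:27618356-27618429) were 69.9-fold and 40.2-fold higher, and Ile-AAT-7-1 (chr6:26720992-26721065) and Leu-AAG-4-1 (chr6:28478623-28478704) 74.8-fold and 27.5-fold. Lys-CTT-10-1 stood at 1.94 and 504 normalised counts, a difference of 9.44 ± 2.08 whose error reflects the few counts. Tyr-GTA-9-1, Cys-GCA-19-1 (chr7:149613065-149613136, in an intron of ZNF767P) and Tyr-ATA-1-1 (chr2:218245826-218245918, in an intron of ARPC2) were under 1 normalised count per library in the DUS1L-table set, the floor set by 3 counts over the group. They held 242, 138 and 118 normalised counts in the DUS3L-table set, which makes them at least 647-fold, 368-fold and 315-fold higher. Tyr-ATA-1-1 is the whole family Tyr-ATA. No isodecoder was under that floor in the DUS3L-table set with 100 or more in the DUS1L-table set.

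Among the 8 isodecoders of the steepest falls with the same minimum, 5 were of Asn-GTT. These 8 reach that minimum wholly or almost wholly through the DUS1L-table set, so their low DUS3L-table levels come with the choice. Asn-GTT-24-1 (chr1:146370101-146370174, in an intron of SEC22B4P), the largest of its family in the DUS1L-table set, went from 5115 to 158 normalised counts and was 12.1-fold lower in share. Asn-GTT-10-1, 9-2, 8-1 and 6-1 stood between -3.59 and -3.19, Asn-GTT-8-1 with a wide error of 1.09. Of the 16 asparagine isodecoders compared, 9 were lower and 1 higher. Of 15 leucine isodecoders 6 were higher and 2 lower (median 1.14), and of 11 isoleucine isodecoders 4 and 1 (median 1.63), against a median of -0.29 over all 238, of which 20.2% were higher and 19.7% lower. These counts leave out the rows without an SE, Leu-AAG-2-4 (-1.38), Leu-TAG-2-1 (-0.57), Leu-TAG-3-1 (-0.59), Leu-CAG-1-1 (1.70) and Ile-AAT-4-1 (-2.50). Leu-AAG-2-4 and Ile-AAT-4-1 were the largest of their amino acid in the DUS1L-table set. All leucine isodecoders together held 1.73% and 1.39%, and all isoleucine isodecoders 0.422% and 0.712%. Without Gly-GCC, 7 asparagine isodecoders were lower and 1 higher, 12 leucine isodecoders were higher and 1 lower, and 7 isoleucine isodecoders were higher and 1 lower. Of the 43 isodecoders numbered 1 in their family 7 were higher and 7 lower, and of the 173 with higher numbers 38 and 32, both near the background of 20.2% and 19.7%. Tyr-GTA-2-1 (chr2:27050782-27050870, in an intron of AGBL5) went from 215 to 2.87 normalised counts, 28.0-fold lower in share, and Leu-AAG-1-2 from 197 to 4.19, 17.6-fold lower. Glu-TTC-4-1 fell from 0.325% ± 0.062 to 0.0302% ± 0.0075, whereas Glu-TTC-3-1, which differs from it by 1 base, went from 0.0181% ± 0.0043 to 0.0091% ± 0.0019 and lay within 3 SE. The main glutamate isodecoder, Glu-TTC-2-2, held 8.00% ± 2.01 and 4.03% ± 0.64.

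Inside families the leading isodecoder was mostly the same. Of 46 families with more than 1 isodecoder, 38 had the same largest member in both sets, and of 14 with at least 1% in both sets, 13. The exception was Gly-CCC, in which Gly-CCC-2-1 (chr2:70248991-70249061) held 56.3% of the family in the DUS1L-table set and 28.1% in the DUS3L-table set, and Gly-CCC-3-1 0.185% and 37.9%. The family's own share differed by only -0.28 ± 0.42. Arg-ACG kept its make-up, with Arg-ACG-2-1 at 60.6% and 63.7%. Tyr-GTA was remade, its largest member being Tyr-GTA-2-1 with 49.1% in the DUS1L-table set and Tyr-GTA-9-1 with 55.2% in the DUS3L-table set. In Ile-AAT, named after its values were seen, Ile-AAT-4-1 went from 57.7% to 5.34% of the family and Ile-AAT-3-1 from 8.57% to 58.9%. The difference of Ile-AAT-4-1 had no SE, so that it could not be compared. Over the 46 families a median of 14.6% of a family was held by other isodecoders in the other set.

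The 10 isodecoders of the steepest rises, the near-0 ones included, were also low in both DUS1L clones, which stand in the same tables as the DUS1L-table set. None exceeded 0.0074% of the human rows in any of these 3 groups. In both DUS2L clones each of the 10 was above its own values in these 3 groups, by the recovered levels of the DUS2L tables, although those clones had been compared with the same wild type. Gly-CCC-3-1 held 0.857% and 1.17% in the DUS2L clones and 0.576% in the DUS3L-table set, Tyr-GTA-9-1 0.0568% and 0.0478% against 0.0479%, and Lys-CTT-10-1 0.0785% and 0.0877% against 0.0998%. In the DUS3L-table groups 9 of the 10 were above their own values in every DUS1L-table group; Thr-CGT-3-1 held 0.0014% in DUS3L clone #1. The headers number the clones without saying which labelled clone is #1. Of the 48 isodecoders higher in the DUS3L-table set, 43 lay nearer to that set than to the DUS1L-table set in DUS2L clone #1 and 43 in clone #2, against 9 and 3 in the DUS1L clones. Of the 47 lower ones, 17 and 30 lay nearer to it in the DUS2L clones. Of all 238 rows, 135 and 150 lay nearer to the DUS3L-table set in the DUS2L clones, and 78 and 71 in the DUS1L clones. The median distance of DUS2L clone #1 was 1.10 to the DUS1L-table set and 0.703 to the DUS3L-table set. For clone #2 it was 1.23 and 0.722. Without Gly-GCC these distances were 0.993 and 0.865 for clone #1 and 1.16 and 0.775 for clone #2. Over the 67 anticodon rows they were 0.722 and 0.665, and 0.986 and 0.698. Without Gly-GCC, 29 and 33 of 66 anticodon rows lay nearer to the DUS3L-table set. The labels do not say which libraries were prepared together, and library preparation and genotype cannot be told apart in these values.

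**Figure D4:**
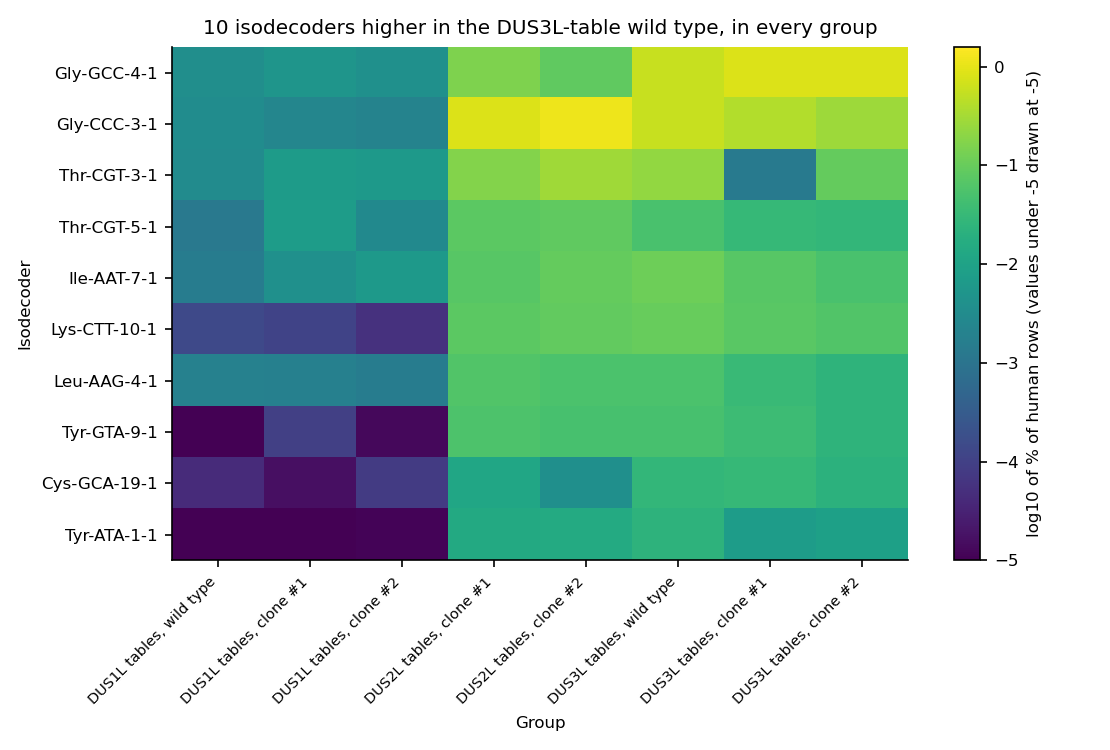
Share of 10 isodecoders in 8 groups, as log10 of percent of human rows, in the order of the deposited tables. Within every row both DUS2L clones are brighter than the 3 groups of the DUS1L tables. So are the DUS3L-table groups, apart from Thr-CGT-3-1 in DUS3L clone #1.

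The share of Gly-GCC was 7.56% and 5.94% in the DUS1L clones, 22.7% and 29.1% in the DUS2L clones and 70.8% and 65.3% in the DUS3L clones, beside 7.65% and 52.0% in their wild types. Mitochondrial tRNAs held 28.2% and 22.7% in the DUS1L clones, 19.5% and 10.8% in the DUS2L clones and 4.24% and 3.71% in the DUS3L clones. The spike-ins amounted to 1.12% of the human rows in the DUS1L-table set and 1.01% in the DUS3L-table set. With the mean of their log2 differences as reference, all differences stood 0.09 higher on the log2 scale. The spike-ins did not move alike, with 0.31 ± 0.37 for Lys-TTT, -0.11 ± 0.34 for Phe-GAA and -0.48 ± 0.35 for Tyr-GTA of E. coli. The difference between the wild-type sets had a median size of 1.14 over 67 rows, with 36 rows at least 2-fold apart. The clones differed from the wild type of their own table by a median size of 0.62 and 0.55 for DUS1L, 0.70 and 1.02 for DUS2L and 0.97 and 0.71 for DUS3L. At least 2-fold apart from it were 12 and 15 rows in the DUS1L clones, 26 and 34 in the DUS2L clones and 31 and 18 in the DUS3L clones. Over the 66 rows other than Gly-GCC and with Gly-GCC out of the total, the median size was 0.996 between the wild-type sets, 0.62 and 0.54 for the DUS1L clones, 0.65 and 0.78 for the DUS2L clones and 0.38 and 0.33 for the DUS3L clones.

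**Figure D5:**
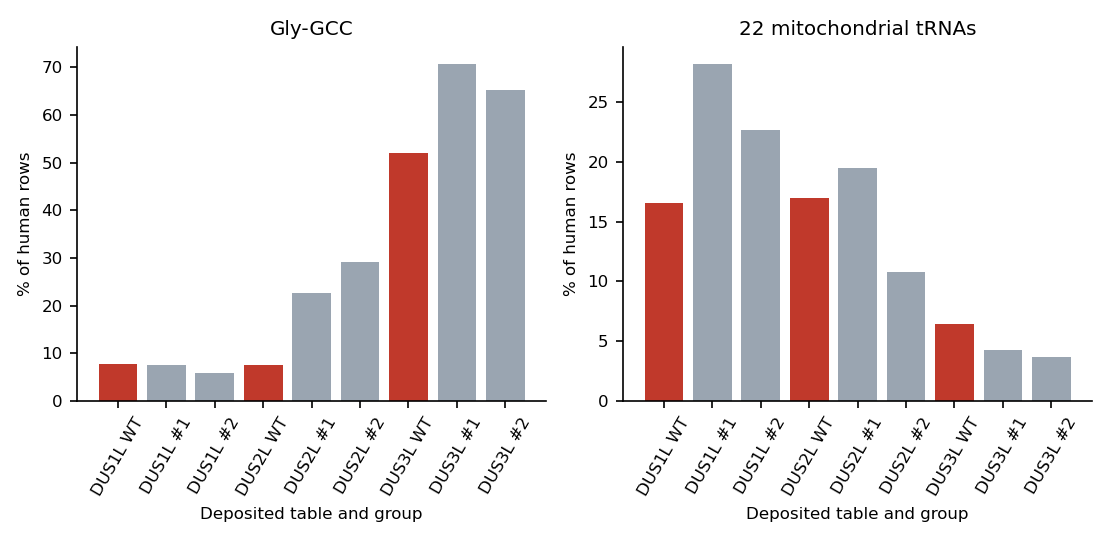
Share of Gly-GCC (left) and of the 22 mitochondrial tRNAs (right) in percent of human rows in each group of each deposited table, without errors, wild type in red. The DUS1L and DUS2L wild types, taken as 1 set, stand at 7.65% and 7.61% for Gly-GCC and the DUS3L wild type at 52.0%.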

How the data were processed

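Small RNA libraries of gel-isolated tRNA were sequenced from HEK293T cells, per the labels' protocols. Tools listed in the submitters' processing notes are fastp, STAR, featureCounts and DESeq2, with build hg38 and no versions; read assignment and scaling are not given in the sources used here. Per the file headers, the authors' 6 deposited tables hold a mean of normalised counts (a signal), log2 fold changes and unadjusted p-values of both clones against wild type, and 0 columns per library. The summed wild-type level was 1351150 normalised counts in the DUS1L-table set and 504853 in the DUS3L-table set, and the median dispersion 0.211 and 0.0879.

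With Python 3.11.15, numpy 2.4.6, pandas 2.3.3 and scipy 1.17.1, the wild-type level was solved as 3 times the mean over 1 plus both fold changes. The SE of a fold change followed from its p-value, and the dispersion from that SE and the levels, averaged over both clones; the SE leaves out the error of the total. Rows needed a mean of 10 normalised counts over both sets. The members, lists and the rule for named rows were chosen with earlier results of these data known. That rule took the 12 largest families, 4 fixed ones, up to 10 families and 8 isodecoders past 3 SE in each direction, the 4 smallest differences, the largest and most changed mitochondrial tRNAs, the 8 largest isodecoders, changed leading isodecoders and near-0 rows. Alternatives were 4 other scales, 2 and 4 SE, other minimum levels, the DUS2L tables and the dispersion of 1 clone. The calling was tested on simulated data.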

Additional observations from a re-analysis of the deposited data

How the results depend on the processing

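The choice of scale moved the split of calls more than their number. Centred on the median nuclear row, 15 families were higher and 8 lower; with Gly-GCC left out of the total, an alternative chosen after seeing the data, 19 and 3, and 81 and 19 isodecoders; that scale put the mitochondrial share of the DUS3L-table set at 13.5%. At 2 SE, 39 families passed (14 higher, 25 lower) and 147 isodecoders (85 lower), and at 4 SE 15 families (5 higher, 10 lower) and 62 isodecoders (30 lower). A mean of at least 100 left 26 higher isodecoders. The spike-ins as reference gave 8 and 12 families, and percent of nuclear rows 8 and 18. Among 304 recomputed values of 61 named differences, 0 past 3 SE changed sign, but 25 of 15 differences within 3 SE did, 13 of them without Gly-GCC (Glu-TTC from -0.83 to 0.11). A further 28 values fell within 3 SE, and that of Lys-CTT passed 3 SE as percent of nuclear rows. With the DUS2L tables, Met-CAT had no SE and could not be compared. Depth limits low rows: the median SE was 0.743 for isodecoders with a mean of 10 to 100 and 0.489 from 1000. No paired analysis was possible because the tables hold no values per library, so that leaving out a library could not be run either.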
